A study of Homo sapiens with 5 samples.

Results

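The eukaryotic translation initiation factor (EIF) genes were followed in COLO 320DM, an established human colorectal adenocarcinoma cell line, after siRNA against the deubiquitinase USP17. They were taken by symbol: protein-coding genes named EIF and a digit, leaving out the EIF2AK kinases, the EIF4EBP binding proteins and EIF4ENIF1. This gave 48 of the 60651 genes listed, with 5 in the EIF1 group, 11 in EIF2, 14 in EIF3, 12 in EIF4, 5 in EIF5 and 1 in EIF6. The family was chosen on read counts of the same USP17 against control contrast from an earlier look at these libraries, so its values here are a description and no count of its members is read as support for a change in the family.

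Poly(A)-selected RNA was sequenced from 5 libraries, each from cells given a different siRNA. The group with USP17 siRNA comprised siIDT, sino4 and siSMPLT, and the control group comprised the non-silencing siRNAs siL2 and siNT. The series names only the controls, so the other 3 libraries were taken as USP17-targeting by elimination. Every duplex had 1 library of 1 cell line, and no label speaks of separate cultures. The p-values therefore rest on differences among 5 single libraries alone. That spread may be technical, and it holds whatever each duplex does by its own sequence.

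Initiation begins when eIF2 with GTP brings the initiator tRNA to the small ribosomal subunit, where eIF1, eIF1A, eIF3 and eIF5 gather. The cap-binding protein eIF4E, the scaffold eIF4G and the helicase eIF4A load this complex onto capped mRNA, with eIF4B and eIF4H helping the helicase. After the start codon is found, eIF5 promotes GTP hydrolysis by eIF2, eIF5B joins the subunits, and eIF2B recharges eIF2 with GTP. Phosphorylation of eIF2 by the EIF2AK kinases and binding of eIF4E by the EIF4EBP proteins are the main brakes, and both act on protein, which RNA counts do not show.

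Reads on the genes' own strand numbered 31704821 to 36276143 per library, so a count of 0 allows up to 0.0827 to 0.0946 CPM (counts scaled to library size), for counting error only. The 30 USP17L genes in the files, the near-identical copies that encode USP17, had 0 reads in all 5 libraries. RSEM, which shares out ambiguous reads, also gave them an expected count of 0. The knockdown could not be checked on RNA. No pair of libraries was a duplicate, since chi-square per degree of freedom was at least 6.02, the value for sino4 and siSMPLT. Pairs of USP17 libraries reached 11.9 at most, and pairs across the groups ran from 30.7 to 51.0. The controls siL2 and siNT differed from each other by 29.2, nearly as much as siSMPLT and siNT at 30.7. Of 9 colon epithelium markers 6 had a mean of at least 1 CPM, led by CDX2, while CDH1, CDX1 and VIL1 stayed under 1 CPM. Their summed level was 1811 to 1870 CPM in the USP17 libraries and 2192 to 2270 CPM in the controls. Leukocyte markers summed to 48.1 to 53.3 against 45.5 to 56.7 CPM, nearly all of it PTPRC, with CD3E and CD14 near 0. The 7 neuroendocrine markers summed to 6.54 to 8.81 against 6.51 to 11.5 CPM, with no read of INSM1. Fibroblast and endothelial markers summed to 12.6 to 17.1 against 14.6 to 16.4 CPM, nearly all COL1A1. The colon marker sum was lower with USP17 siRNA through CDX2 (1639, 1631 and 1686 against 2098 and 2007 CPM). Another marker went the other way, CDH17, at 47.7 to 52.0 against 27.1 to 27.3 CPM, and KRT20 was 3.75 to 6.58 against 1.84 to 3.85 CPM. The part of these markers in the EIF values was not tested. In bulk RNA, fewer cells of a type and less RNA per cell cannot be told apart.

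Of the 48 EIF genes 45 had enough reads to be tested, and edgeR's quasi-likelihood test with Benjamini-Hochberg adjustment over all 16341 genes tested called 3 higher and 4 lower with USP17 siRNA at 0.05. EIF4G2, EIF4G3 and EIF5 rose. EIF4G1, EIF2B1, EIF4E3 and EIF5A fell. Those 7 genes, both directions together, are 15.6% of the members tested, beside 1710 of all 16341 genes tested. By direction, 3 and 4 of the 45 members were called higher and lower, beside 4.64% and 5.82% of all genes tested. The other 38 did not pass, with log2 fold changes from -0.30 to 0.76. EIF1AY, EIF3CL and EIF4E1B were left out by the filter on low counts. Calls hung on single libraries, among the members as among all genes. Over all genes tested, 130 were called without sino4, 349 without siIDT and 1041 without siSMPLT, in place of 1710. Of the members, without sino4 none was called higher and 1 lower, without siIDT 1 and 1, and without siSMPLT 1 was called higher. Without either control 7 were called lower.

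**Figure D1:**
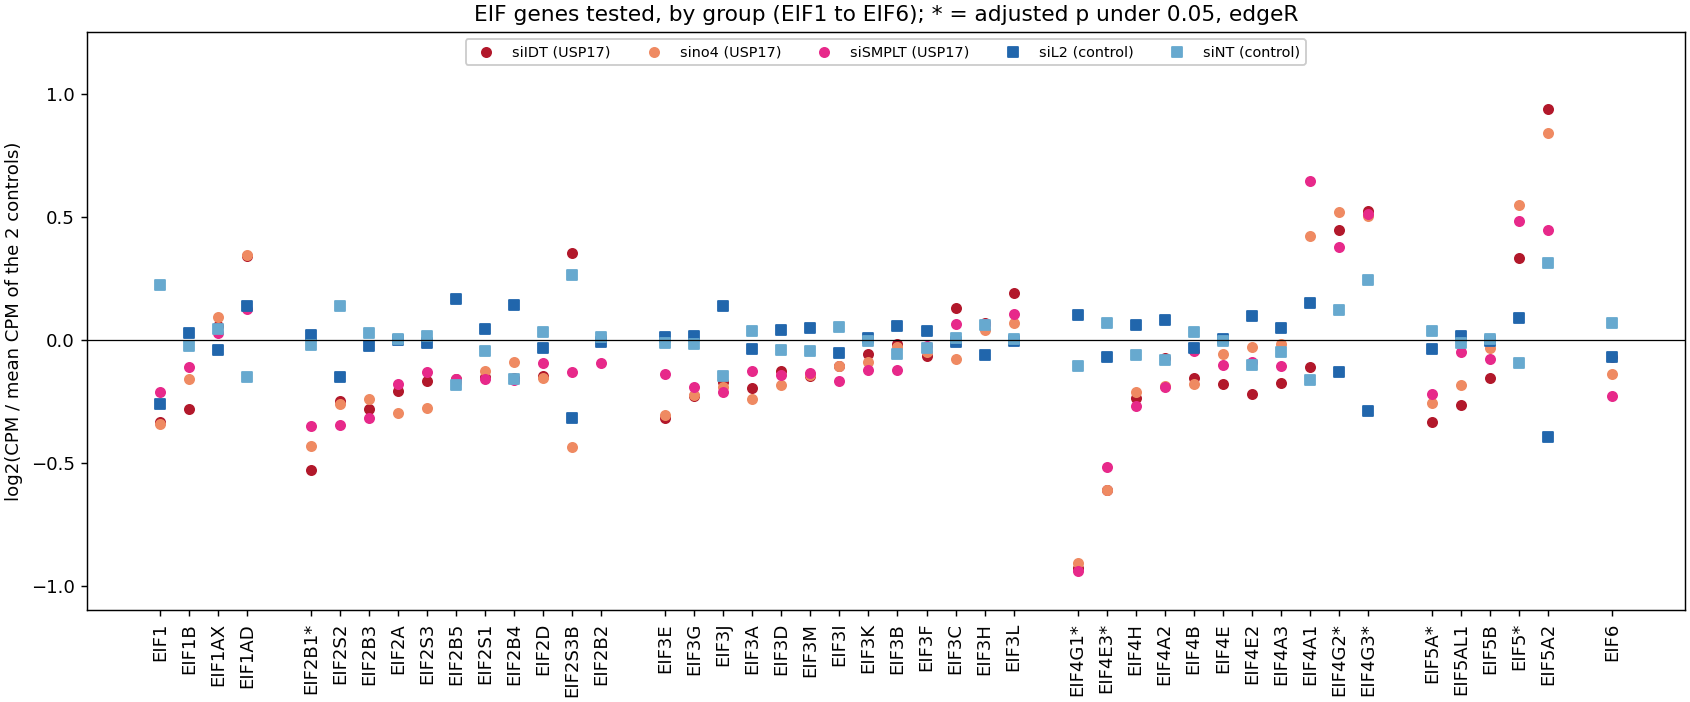
Log2 ratio of each library's CPM to the mean of the 2 controls (vertical axis) for the 45 EIF genes tested, grouped from EIF1 to EIF6 along the horizontal axis. Circles are the 3 USP17 siRNA libraries, squares the 2 controls, and a star marks an adjusted p under 0.05 in edgeR. EIF4G1 lies farthest below 0, EIF5A2 farthest above it, and most of the other genes lie slightly below.

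Small negative differences ran through most of the family. The log2 fold change was below 0 for 35 of the 45 members, against 49.3% of all genes tested, and its median was -0.14, against 0.01 over all genes tested. Taken library by library, the median over the 45 members relative to the control mean was -0.15 in siIDT, -0.14 in sino4 and -0.12 in siSMPLT. Over all tested genes the same medians were 0.01, 0.00 and 0.01. In 25 members every USP17 library lay below both controls, and in 5 every one lay above, whereas 22.6% and 23.3% of all genes tested did so. Most of these 25 differences were too small to pass the test, which called 4 genes lower.

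The EIF4G paralogs held the widest span in the family. EIF4G1 and EIF4G3 encode scaffolds that join eIF4E, eIF4A and eIF3, while EIF4G2 encodes a shorter relative that lacks the eIF4E-binding part and serves cap-independent initiation. EIF4G1 (chr3:184314495-184335358, plus strand, GRCh38) had 743, 754 and 737 CPM in siIDT, sino4 and siSMPLT, and 1514 and 1314 CPM in siL2 and siNT. All 3 USP17 libraries were nearly equal and far under both controls. The group means were 745 ± 8.54 CPM (SD, n = 3) and 1414 ± 142 CPM (SD, n = 2), or 0.527 of the control level. The log2 fold change was -0.93 ± 0.07 (SE; 95% interval -1.09 to -0.76) with an edgeR adjusted p of 0.00146. Its call held in all 12 other settings or sets of libraries tried, with values from -1.03 to -0.82.

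EIF4G2 (chr11:10797050-10809110, minus strand) had 1792, 1883 and 1708 CPM with USP17 siRNA and 1200 and 1428 CPM in the controls. Both controls lay under every USP17 library, and siNT was the nearer one. EIF4G2 rose by 0.45 ± 0.08 on the log2 scale (SE; edgeR adjusted p = 0.0178), a call lost without siIDT (adjusted p = 0.0681) or without sino4 (adjusted p = 0.0938). EIF4G3 (chr1:20806292-21176888, minus strand) had 217, 214 and 215 CPM against 123 CPM in siL2 and 178 CPM in siNT. The USP17 libraries again agreed closely while the controls stood 0.53 apart on the log2 scale, about as far as the groups. EIF4G3 rose by 0.51 ± 0.14 (SE; edgeR adjusted p = 0.0474), the weakest of the 7 calls. That call was lost without any 1 of the USP17 libraries (adjusted p from 0.104 to 0.148) and with RSEM expected counts (adjusted p = 0.0594), and the difference was 0.27 without siL2 and 0.80 without siNT.

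On a scale that allows genes to be compared, TPM (RSEM's abundance corrected for length), the 3 paralogs together reached 1120, 1133 and 1079 TPM with USP17 siRNA and 1094 and 1133 TPM in the controls. The sums overlapped, at 1111 ± 27.9 TPM (SD, n = 3) and 1114 ± 28.1 TPM (SD, n = 2). Within the sum, EIF4G1 held 24.7 ± 0.654% with USP17 siRNA and 46.6 ± 6.15% in the controls. EIF4G2 held 69.7 ± 1.02% against 49.6 ± 5.26%, and EIF4G3 5.58 ± 0.369% against 3.87 ± 0.889%. EIF4G1 and EIF4G2 were thus near equal in the controls, at 557 and 502 TPM in siL2 and 478 and 604 TPM in siNT, and their order differed between these libraries. In siIDT, sino4 and siSMPLT EIF4G2 stood above EIF4G1 each time, at 780, 801 and 742 TPM against 277, 273 and 274 TPM.

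**Figure D2:**
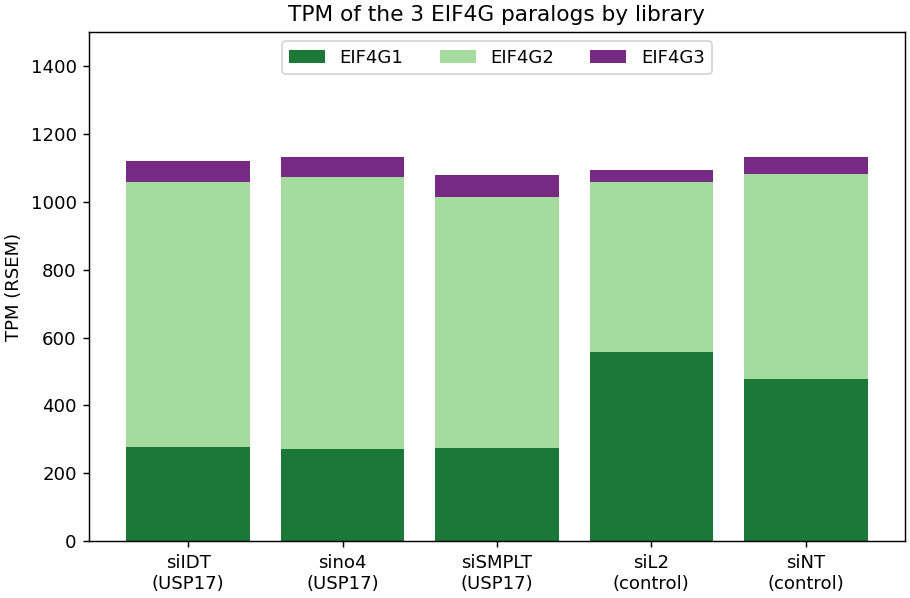
TPM (vertical axis, from RSEM) of EIF4G1, EIF4G2 and EIF4G3 stacked in 1 bar for each of the 5 libraries, with no error bar since each library is 1 measurement. EIF4G1 is at 273 to 277 TPM in the 3 USP17 libraries and 478 to 557 TPM in the controls, while EIF4G2 is at 742 to 801 TPM in the USP17 libraries and 502 to 604 TPM in the controls.

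A 7-letter word was looked up in the 3' untranslated regions (3' UTRs) of the family. The word ATCACTC came from an earlier scan of these same libraries for words common in genes that were lower with USP17 siRNA, so its presence in lower genes is no independent evidence. Each gene's 3' UTR was read from 1 GENCODE release 29 transcript on GRCh38, the one with the longest coding sequence, on the sense strand. The word was found in 4 of the 45 EIF genes searched and in 6.76% of the 12458 tested genes searched. Over all genes the median log2 fold change was -0.13 for the 842 with the word and -0.01 for those without. The 4 EIF sites are shown with the word in capitals because they set 2 genes that fell beside 2 that did not pass the test.
EIF4G1, chr3:184335214-184335243, plus strand: attttctgaaaATCACTCtcgggactgccg
EIF4E3, chr3:71680359-71680388, minus strand: catgcagcaaaATCACTCagatacttactt
EIF2S1, chr14:67385381-67385410, plus strand: agtgagctgtgATCACTCcagtgcactcga
EIF2B2, chr14:75010131-75010160, plus strand: gagtgattccgATCACTCactcacacagtc

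Counted from the first base of each 3' UTR, the word began at base 317 of 449 in EIF4G1, 4305 of 9266 in EIF4E3, 1952 of 3076 in EIF2S1 and 954 of 3178 in EIF2B2. The log2 fold changes were -0.93 for EIF4G1 and -0.58 for EIF4E3, both called lower, and -0.15 for EIF2S1 and -0.02 for EIF2B2, neither called. ATCACTC was absent from the 3' UTRs read for EIF2B1 (1350 bases) and EIF5A (58 bases), the other genes that fell. This says only that these letters are not in those stretches. The median 3' UTR searched was 449 bases in the EIF genes and 1027 bases in all tested genes searched. Whether any duplex acts through the site was not tested, since the siRNA sequences were not used here. TCACTCA, which overlaps ATCACTC by 6 letters, was in 5 EIF genes (EIF2B2, EIF2S2, EIF4A1, EIF4E3 and EIF5B) and in 10.4% of all tested genes searched. A word found before among genes that were higher, GATCATC, was in EIF2B2 and EIF4E3 and in 5.29% of those searched.

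Among the cap-binding proteins, EIF4E and its relatives EIF4E2 and EIF4E3, only EIF4E3 passed the test. EIF4E3 (chr3:71675416-71754773, minus strand), which binds the cap in a different way from EIF4E, had 9.02, 9.01 and 9.63 CPM against 13.1 and 14.4 CPM. Its USP17 libraries lay together below both controls. It fell by 0.58 ± 0.11 on the log2 scale (SE; edgeR adjusted p = 0.0181), lost without siIDT (0.0734) or without sino4 (0.108), and it overlaps the protein-coding gene AC097634.4 on the same strand. The gene was scarce, with 1.26 to 2.06% of the summed TPM of the 3 relatives. EIF4E itself had 59.9, 65.1 and 63.2 against 68.1 and 67.7 CPM and did not pass (-0.11, adjusted p = 0.367). EIF4E2, a cap-binding protein linked to repression of translation, had a difference of -0.11 (adjusted p = 0.471), with overlapping groups. EIF4E1B had no reads.

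Among the helicases, the value of EIF4A1 hung on how reads were counted. EIF4A1 (chr17:7572706-7579005, plus strand) overlaps the readthrough gene SENP3-EIF4A1 on the same strand and has 13 pseudogenes in the files. Its uniquely assigned reads, 2.21 to 3.88 CPM, were 0.361% of the count that RSEM gave it by sharing out ambiguous reads. On the read counts its log2 fold change was 0.35 ± 0.24 (SE), with overlapping groups. RSEM put it among the most abundant EIF genes, at 651, 722 and 801 TPM with USP17 siRNA and 936 and 966 TPM in the controls, with no overlap. In edgeR on the rounded expected counts the difference was -0.42 ± 0.09 (SE; adjusted p = 0.0338), of opposite sign to the read counts. EIF4A2, the close paralog, was 623, 582 and 572 TPM against 694 and 617 TPM and did not pass on either count (read counts -0.15, adjusted p = 0.216). EIF4A3, a helicase of the exon junction complex, had -0.10 (adjusted p = 0.439). The helicase cofactors EIF4B, at a mean of 838 TPM the highest of all members, and EIF4H had -0.13 and -0.24 (adjusted p = 0.243 and 0.0638).

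With RSEM expected counts in place of read counts, edgeR called 2 of 46 EIF genes higher and 5 lower, against 4.16% and 5.15% of all genes tested that way. EIF4A1 joined the lower genes and EIF4G3 left the higher ones. For 34 of the 48 members the read count was at least 80% of the RSEM count, for 6 it was between 50 and 80%, and for 6 it was under 50%. These last were EIF4A1, EIF3C (1.12%), EIF3CL (0.628%), EIF4E (34.5%), EIF1AX (47.9%) and EIF4H (48.3%), and 2 members had no RSEM count. EIF4A1 and EIF3C, with EIF3C at -0.06 by RSEM and 0.04 by reads, were the genes in which the sign turned.

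**Figure D3:**
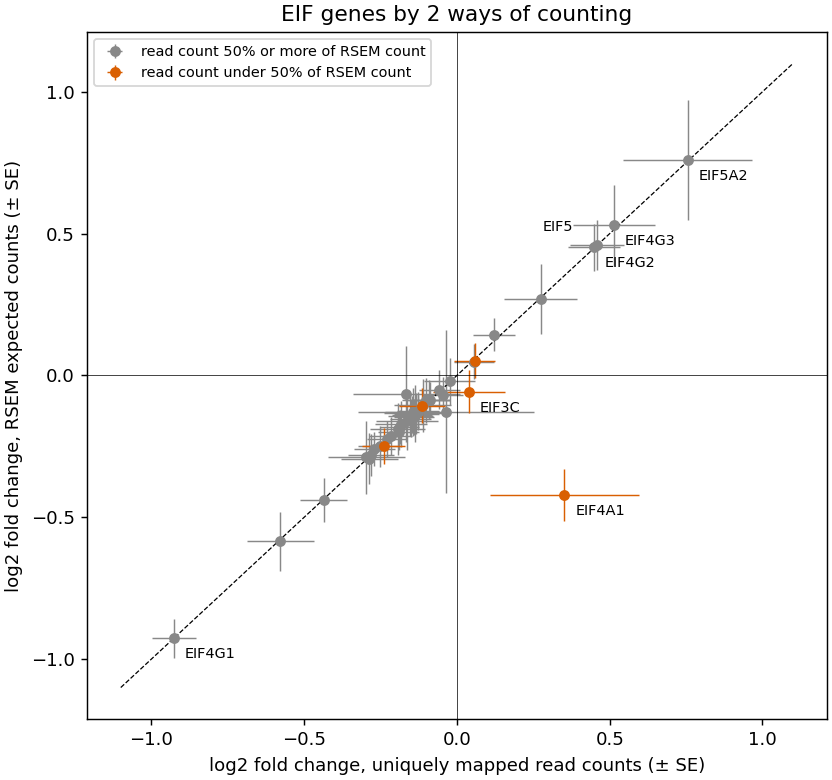
Log2 fold change, USP17 siRNA over control, from uniquely assigned read counts (horizontal axis) and from RSEM expected counts (vertical axis) for each EIF gene tested both ways, with standard errors as bars. Orange marks genes whose read count is under 50% of the RSEM count; EIF4A1 alone lies far from the dashed line of equality.

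In the EIF5 group 2 genes moved in opposite directions. EIF5 (chr14:103333544-103345025, plus strand), the factor that triggers GTP hydrolysis by eIF2, had 335, 390 and 372 CPM against 283 and 250 CPM. Every USP17 library was above both controls, siIDT by the least. EIF5 rose by 0.46 ± 0.09 on the log2 scale (SE; edgeR adjusted p = 0.0189), a call lost without sino4 or without siSMPLT. EIF5A (chr17:7306999-7312463, plus strand), a hypusine-bearing factor of elongation and termination despite its name, had 368, 389 and 399 CPM against 453 and 477 CPM. It fell by 0.27 ± 0.07 (SE; edgeR adjusted p = 0.0383), again without overlap, and that call was lost without any 1 of the USP17 libraries.

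EIF5A2, the second hypusine-bearing gene, had the highest log2 fold change of all members but did not pass the test. EIF5A2 did pass in the DESeq2 Wald test (adjusted p = 0.00479) and in edgeR with no low-count filter (adjusted p = 0.04665). It had 41.4, 38.7 and 29.5 CPM against 16.4 CPM in siL2 and 26.8 CPM in siNT. The groups did not overlap in CPM, yet siNT was 0.71 above siL2 on the log2 scale and siSMPLT lay close to siNT. The difference was 0.76 ± 0.21 (SE; edgeR adjusted p = 0.0571), and it was 0.45 without siL2 and 1.15 without siNT. In TPM EIF5A2 did overlap, at 22.59, 21.48 and 17.44 against 12.02 and 21.28 TPM. EIF5A made up 97.3 ± 0.415% of the summed TPM of EIF5A and EIF5A2 with USP17 siRNA and 98.1 ± 0.654% in the controls. EIF5B, the subunit-joining GTPase, and EIF5AL1, an EIF5A-like gene, had -0.09 and -0.16 and did not pass.

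**Figure D4:**
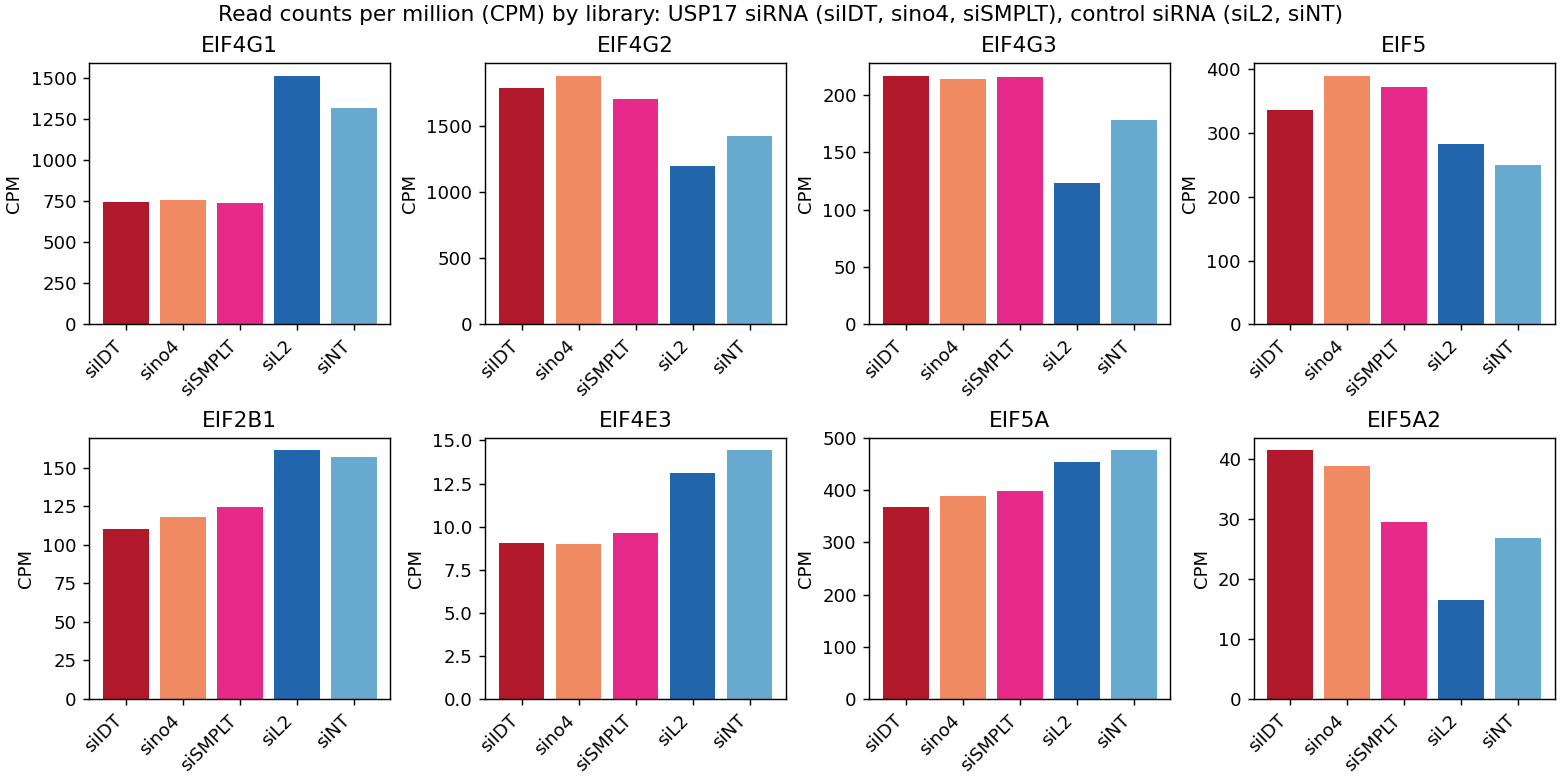
CPM (vertical axes, each from 0) of the 7 called EIF genes and EIF5A2 in each of the 5 libraries, 1 bar per library with no error bar since each is 1 measurement. The 3 USP17 siRNA libraries lie on 1 side of both controls in every panel, most closely together in EIF4G1 and EIF4G3.

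All 11 genes of the EIF2 group had a log2 fold change below 0, against 49.3% of all genes tested, with a median of -0.16. Of these 11, 1 passed the test, while 5.82% of all genes tested were called lower. That gene was EIF2B1 (chr12:123620406-123633766, minus strand), the regulatory alpha subunit of eIF2B. It had 110, 118 and 125 CPM against 161 and 157 CPM, every USP17 library below both controls. It fell by 0.44 ± 0.08 on the log2 scale (SE; edgeR adjusted p = 0.0149), lost without siIDT (0.0627) or without sino4 (0.0938). The other regulatory subunits, EIF2B2 (beta) and EIF2B4 (delta), had -0.02 and -0.14 with overlapping groups. Of the catalytic subunits, EIF2B3 (gamma) had 47.0, 48.3 and 45.8 against 56.1 and 58.2 CPM and narrowly missed the threshold (-0.28, edgeR adjusted p = 0.0514). EIF2B3 did pass in edgeR with DESeq2 size factors (adjusted p = 0.0490), a CPM filter (0.0459) or unstranded counts (0.0468). It also passed in the DESeq2 Wald test (adjusted p = 0.0194). It did not pass with limma-voom, RSEM expected counts or no low-count filter, or without any 1 of the USP17 libraries. The difference of EIF2B3 was -0.31 without siL2 and -0.25 without siNT. EIF2B5 (epsilon) had 140 to 141 CPM in the USP17 libraries, 177 CPM in siL2 and 139 CPM in siNT, and its difference of -0.16 was 0.02 without siL2 and -0.33 without siNT (adjusted p = 0.0157).

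The eIF2 subunits themselves, EIF2S1, EIF2S2 and EIF2S3, had -0.15, -0.29 and -0.19, and none was called (smallest edgeR adjusted p = 0.0863). Each had all USP17 libraries below both controls, as did 22.6% of all genes tested. EIF2S2 had 159 CPM in siL2 and 194 CPM in siNT, and its difference was -0.14 without siNT and -0.42 without siL2 (adjusted p = 0.00946). EIF2A, which can bring initiator tRNA independently of eIF2 and had the highest TPM of the group, was 405, 380 and 413 against 468 and 469 CPM. Its difference of -0.23 missed the threshold (edgeR adjusted p = 0.0596). EIF2D, which acts in reinitiation and ribosome recycling, had -0.13. EIF2S3B, a retrocopy of EIF2S3, was near 1 to 2 CPM and its sign turned with the library left out.

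None of the 13 EIF3 genes tested passed, while 4.64% and 5.82% of all genes tested were called higher and lower. Their median was -0.13. In the DESeq2 Wald test, which called 2342 of all genes, EIF3E (adjusted p = 0.0392) and EIF3G (0.0463) did pass. The eIF3 complex is the largest factor on the small subunit. Of these 13 genes 10 had a difference below 0, against 49.3% of all genes tested. In 8 of them every USP17 library lay below both controls, against 22.6% of all genes tested. EIF3E, a core subunit and the highest of the group by TPM, was the lowest, at 503, 506 and 568 against 632 and 620 CPM (-0.25, edgeR adjusted p = 0.0626). At the other end EIF3L had 300, 276 and 282 against 262 and 264 CPM (0.12, adjusted p = 0.28). EIF3H, the third of the genes with a difference above 0 besides EIF3C, had 0.06. EIF3C and EIF3CL are near-identical copies on chromosome 16, so reads assigned to either alone were few. RSEM gave EIF3C 607, 555 and 579 TPM against 564 and 648 TPM, which overlap.

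Of the EIF1 group none passed, while 4.64% and 5.82% of all genes tested were called higher and lower. EIF1, which guards start codon choice, had 241, 239 and 262 CPM against 253 CPM in siL2 and 355 CPM in siNT. The USP17 libraries matched siL2 and siNT stood apart, so the difference of -0.30 (edgeR adjusted p = 0.167) was -0.52 without siL2 and -0.03 without siNT. Its paralog EIF1B had 46.3, 50.4 and 52.1 against 57.3 and 55.3 CPM (-0.18, adjusted p = 0.189). EIF1AX, which encodes eIF1A, had 0.06, and EIF1AD, an eIF1A domain gene, had 0.27, the highest of the group, with overlapping groups. That difference was 0.14 without siNT and 0.43 without siL2 (edgeR adjusted p = 0.0487). EIF6, which keeps the ribosomal subunits apart, had -0.14 (adjusted p = 0.326).

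Side by side, the medians of the groups were -0.06 for EIF1, -0.16 for EIF2, -0.13 for EIF3, -0.11 for EIF4 and -0.09 for EIF5, all below the 0.01 of all tested genes. The EIF3 median was -0.08 and the EIF4 median -0.07 without siL2, and the EIF5 median was -0.06 without siIDT. Spread differed more than the medians: EIF3 genes ran from -0.25 to 0.12 and EIF4 genes from -0.93 to 0.51. Differences between the groups were not tested.

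Around the factors, a list of 54 other genes of translation and its control was read from the same test. It was written with earlier results of these libraries known. Of 52 tested, 1 was called higher and 8 lower, beside 4.64% and 5.82% of all genes, with a median of -0.02. Without sino4 none was called higher and 1 lower, and without siIDT none higher and 4 lower. Of all genes tested, 130 and 349 were called in these settings, in place of 1710. EIF4EBP3 and EEF1G had no uniquely assigned read and were not tested on read counts. By RSEM, EIF4EBP3 was scarce, at 1.21, 0.23 and 0.78 TPM with USP17 siRNA and 0 TPM in both controls. It did not pass on RSEM expected counts (edgeR adjusted p = 0.0545). RSEM gave EEF1G, a subunit of the elongation factor eEF1, 1773 to 1931 TPM, with a difference of -0.04 (edgeR adjusted p = 0.715), so its 0 reflects how reads were counted and not its level. None of the eIF2 kinases passed: EIF2AK1 had -0.03, EIF2AK2 0.15, EIF2AK3 0.00 and EIF2AK4 -0.06, with the smallest edgeR adjusted p at 0.253.

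Of the brakes on eIF4E, EIF4EBP1 had 49.3, 56.9 and 57.6 CPM against 65.9 CPM in siL2 and 98.3 CPM in siNT. EIF4EBP2 had 305, 274 and 246 CPM against 207 and 180 CPM. Neither gene's groups overlapped, and the 2 moved in opposite directions. EIF4EBP1 fell by 0.59 ± 0.16 (SE; edgeR adjusted p = 0.0474), with siNT apart and a difference of -0.27 without it. EIF4EBP2 rose by 0.50 ± 0.10 (SE; edgeR adjusted p = 0.0225). The EIF4EBP1 call was lost in 6 of 12 other settings and the EIF4EBP2 call without siIDT or without sino4.

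LARP1, which binds the cap of ribosomal protein mRNAs, had 362, 361 and 400 CPM against 580 and 619 CPM. The USP17 libraries lay far below both controls, and LARP1 fell by 0.68 ± 0.07 (SE; edgeR adjusted p = 0.00396), a call that held in all 12 other settings. Its 3' UTR holds GATCATC, the word found before among genes that were higher. Like that of EIF4G1, it also holds ATCACTC, and this site is shown for that comparison.
LARP1, chr5:154814417-154814446, plus strand: ggattaccaaaATCACTCtgcagccctgcc

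EEF2, EEF2K, GIGYF2 and RPS6KB1 hold ATCACTC too and were not called. With LARP1, these are 5 of the 52 listed genes searched (9.6%), against 6.76% of all tested genes searched. Others that fell were BZW2, an eIF5 mimic (-0.63), HBS1L, a ribosome rescue factor (-0.62), PDCD4, an inhibitor of eIF4A (-0.45), MLST8, an mTOR subunit (-0.37), and ETF1, the release factor (-0.30). Their edgeR adjusted p-values ran from 0.0147 for BZW2 to 0.0485 for ETF1. Leaving out sino4 ended the call of each of these genes, and the ETF1 call was lost in 6 of the 12 other settings.

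**Figure D5:**
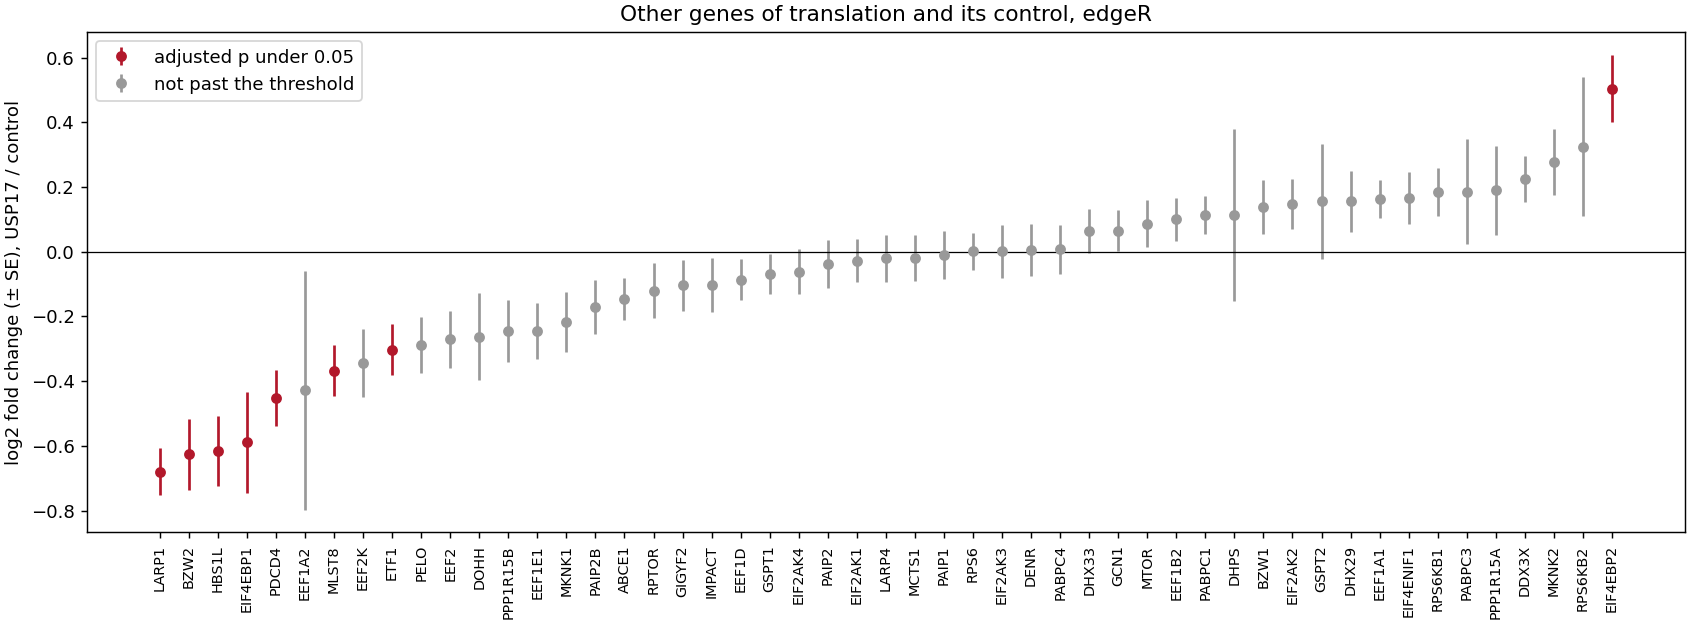
Log2 fold change, USP17 siRNA over control, with its standard error (vertical axis) for 51 of the 52 tested genes of translation and its control other than the EIF genes, in order of value. Red marks an adjusted p under 0.05 in edgeR: 7 genes from LARP1 (-0.68) to ETF1 (-0.30) lie below 0 and EIF4EBP2 (0.50) lies above.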

How the data were processed

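RNA of COLO 320DM cells was extracted with TRIzol and a column and made into poly(A)-selected libraries with a KAPA kit, per the labels' protocols. Per the submitters' processing notes, the tools were bcl2fastq 2.20, STAR 2.7.1a and RSEM 1.3.2 with GRCh38. Which annotation, read layout and strand setting were used is not given in the sources used here. Deposited by the authors were STAR tables of whole-number read counts per gene, of which the own-strand column was used, since it exceeded the opposite-strand column 18.7 to 19.9 times. The authors also deposited RSEM tables with expected counts, TPM and effective lengths. Expected counts were rounded to whole numbers. Summary rows that name no gene, 22.8 to 24.4% of each table, were left out.

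Counts were tested in R 4.3.3 with edgeR 4.0.16: filterByExpr, TMM scaling and the two-sided quasi-likelihood F test, with Benjamini-Hochberg adjustment over all tested genes at 0.05. The steps were tested on simulated data. Alternatives used DESeq2 1.42.0, limma 3.58.1, other filters, RSEM or unstranded counts and each library left out. CPM use TMM library sizes, and SDs are between libraries. Gene positions and 3' UTRs came from GENCODE release 29. The members and lists were chosen with earlier results of these data known. Genes named were the members called, the 3 EIF4G paralogs, the extremes and the highest TPM of each group, paralog pairs, listed genes called (at most 12), the eIF2 kinases and the EIF4EBP genes. Of the list, 1 called gene is not reported here. Members beyond these were named after their values were seen. Figures were drawn with matplotlib 3.10.9.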

Additional observations from a re-analysis of the deposited data

How the results depend on the processing

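The counts rested most on single libraries. With 1 library left out at a time, 130 to 2633 genes were called in place of 1710, 0 to 4 EIF genes were called higher in place of 3 and 1 to 7 lower in place of 4, and in the list of other translation genes 0 to 4 were called higher in place of 1 and 1 to 9 lower in place of 8. Each lowest count was reached without sino4, and some of them also without siIDT. A group left with 1 library was assumed to vary like the other group. The EIF2 median ran from -0.206 to -0.158, the EIF3 median from -0.137 to -0.084, the EIF4 median from -0.15 to -0.069 and the EIF5 median from -0.116 to -0.055. An adjusted p of 0.10 called 3074 genes, 11 EIF genes lower and 2 listed genes higher. The DESeq2 Wald test called 2342 genes, with 9 EIF genes lower. RSEM expected counts called 1559 genes, with 2 listed genes higher. The cause was not tested.

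The sign turned with RSEM for EIF4A1 (-0.42) and EIF3C (-0.057), and with a library left out, over the ranges given, for EIF2B2 (-0.041 to 0.01), EIF2B4 (-0.28 to 0.021), EIF2B5 (-0.328 to 0.022), EIF2S3B (-0.29 to 0.29), EIF3C (-0.006 to 0.097) and EIF3H (-0.002 to 0.118). None of the 7 called EIF genes turned its sign. DESeq2 size factors, limma-voom, both other filters and unstranded counts left the counts of called EIF genes within 1.5 times. Of the 7 called EIF genes, EIF4G1 kept its call in all 12 alternatives. No paired analysis was possible because the labels carry no replicate numbers.

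Among tested members, EIF2S3B, EIF5AL1 and the uniquely assigned reads of EIF4A1 were the lowest, at about 1 to 4 CPM. EIF3CL had too few uniquely assigned reads to be tested.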
